A study of Rattus norvegicus with 6 samples.

Results

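The respiratory chain was examined in the medial prefrontal cortex (mPFC) of rats given a single dose of lysergic acid diethylamide (LSD), with the genes of the nucleus set beside those of the mitochondrial genome. Its members were the probe sets whose only gene symbol in the platform annotation named a subunit of complexes I to IV or of ATP synthase (complex V), cytochrome c1, or a gene of the same name families. This gave 105 of 8740 probe sets, for 58 genes of 4736. Of these, 101 probe sets belonged to 55 nuclear genes and 4 to the mitochondrially encoded genes COX1, COX2 and COX3. All 4 mitochondrial probe sets were kept, and each nuclear gene was represented by its brightest probe set (mean of the 6 arrays). No mitochondrially encoded gene of complex I, complex III or ATP synthase was among the members.

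Male Sprague-Dawley rats weighing 250 to 275 g, whose age the labels do not state, received either 1.0 mg/kg LSD, a serotonin receptor agonist with hallucinogenic effects, or saline, both by intraperitoneal injection, and were killed 90 min later. Each treatment was read on 3 Affymetrix rat arrays, named Saline 1 to 3 and LSD 1 to 3 here. According to the labels 4 rats per treatment were pooled before RNA was extracted, which differs from the study's account of independent pools, so the tests compare the spread between arrays, and this may be only technical. The second line of each sample description contradicts its title and treatment label. Titles and labels were followed, and the opposite reading would turn every sign. All values are log2 values from robust multi-array averaging (RMA), called log2 units below, and a change is the mean of the LSD arrays minus the mean of the saline arrays.

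The respiratory chain moves electrons from NADH and succinate to oxygen through complexes I to IV in the inner mitochondrial membrane, and ATP synthase uses the resulting proton gradient to make ATP. Most of its subunits are encoded in the nucleus and imported, whereas the core of cytochrome c oxidase (complex IV) is made of COX1, COX2 and COX3, which are transcribed inside the mitochondrion from its own circular genome. Neurons depend on this pathway for most of the ATP that restores ion gradients after synaptic activity.

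COX3 was lower after LSD, and it was the only member of either genome to pass the test. Nuclear genes had changes on both sides of 0 with a median close to 0, while all 4 mitochondrial probe sets had negative changes. In limma, with p-values adjusted over all 8740 probe sets and a threshold of 0.05, 1 of the 105 member probe sets passed, against 6 (0.0686%) of all probe sets and 5 (0.0572%) in the direction of lower levels. The median change was -0.58 log2 units over the 4 mitochondrial probe sets, 0.03 over the 55 nuclear genes and 0.0045 over all probe sets.

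COX3, a membrane subunit of complex IV beside the redox-active subunits, read 11.80, 11.83 and 11.96 log2 units on Saline 1 to 3, and 11.11, 11.10 and 11.08 on LSD 1 to 3. Every LSD array was below every saline array, and the LSD arrays differed among themselves by far less than the groups did. The means were 11.86 ± 0.087 and 11.09 ± 0.014 log2 units (SD, n = 3), a change of -0.77 with a 95% interval from -0.96 to -0.57, or 1.70-fold lower (limma adjusted p = 0.0268). It had the fourth smallest p of all probe sets. The call was lost in 8 of 15 alternatives: without any 1 of the 6 arrays (adjusted p from 0.0633 to 0.249), after a further quantile normalization (change -0.65, adjusted p = 0.118) and with the replicate number as a block (adjusted p = 0.151). An exact permutation of the 6 labels gave p = 0.1, the smallest that 20 assignments allow.

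COX2, the subunit that takes electrons from cytochrome c, read 9.95, 10.98 and 10.63 log2 units on Saline 1 to 3, and 10.07, 9.91 and 9.21 on LSD 1 to 3. Saline 1 lay with the LSD arrays and the groups overlapped. The change of -0.79 ± 0.29 log2 units (SE) was of the same size as that of COX3 but did not pass (limma adjusted p = 0.981), and it moved to -1.07 without Saline 1 and to -0.53 without LSD 3.

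COX1, the subunit that holds the oxygen-binding site, had a pair of probe sets that differed in size of change. The first, rc_AA850885_s_at, read 12.15, 11.98 and 12.01 log2 units on Saline 1 to 3, and 11.89, 11.58 and 11.47 on LSD 1 to 3. Its groups did not overlap, and the change was -0.40 ± 0.12 log2 units (SE, limma adjusted p = 0.981). This change shrank to -0.22 after a further quantile normalization and ranged from -0.52 to -0.31 without 1 array. The second, rc_AA893485_g_at, read 12.92, 12.78 and 12.62 log2 units on Saline 1 to 3, and 12.77, 12.61 and 12.72 on LSD 1 to 3. These values overlapped throughout, with a change of -0.07 ± 0.10 log2 units (SE), and the sign turned to 0.014 after cyclic loess and to 0.025 after a further quantile normalization, and was near 0 (0.00067) without Saline 1. This probe set had the highest mean of all 8740 and ranked between first and the third on every array. Quantile normalization gives equal ranks nearly equal values on each array, and its part in this value was not tested. The first COX1 probe set, COX2 and COX3 are of a type (name ending in _s_at) that can match several transcripts.

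**Figure D1:**
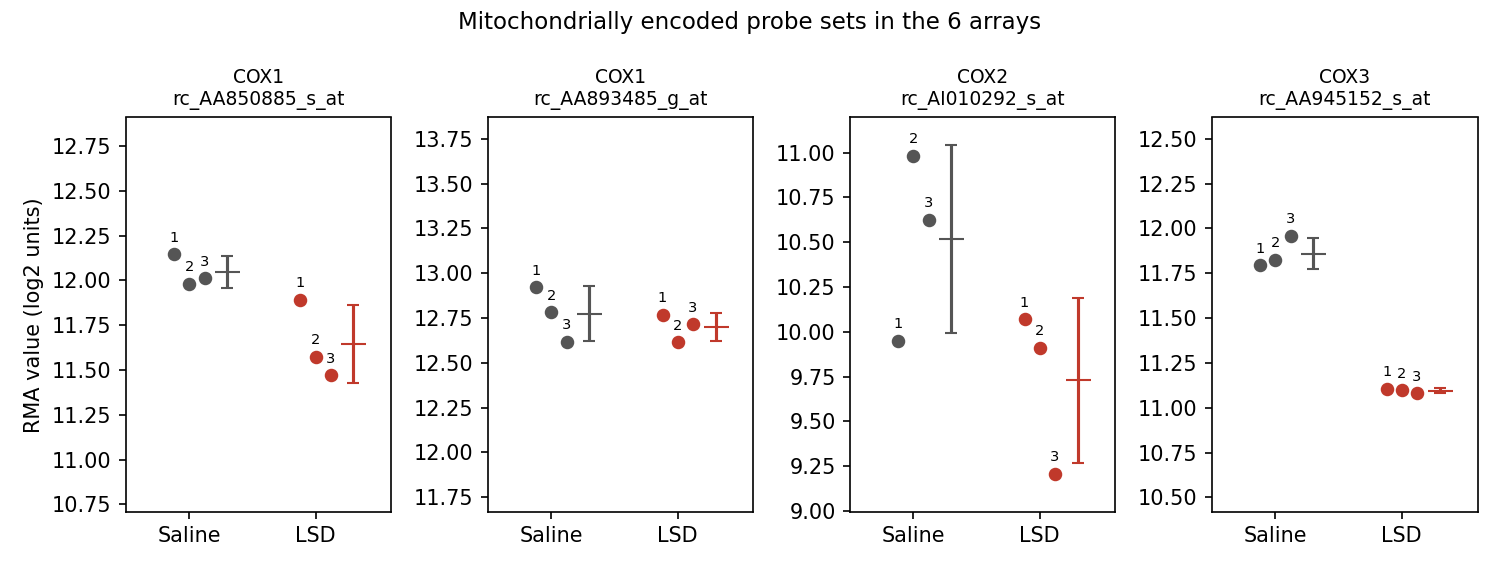
RMA values (vertical axis, log2 units, each panel spanning the same number of units) of the 4 mitochondrially encoded probe sets, with numbered points for the arrays (grey for saline, red for LSD) beside the group mean ± SD (n = 3). COX3 and the first COX1 probe set are lower on all 3 LSD arrays, Saline 1 lies among the LSD arrays for COX2, and the second COX1 probe set overlaps.

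Before adjustment, 3 of the 4 mitochondrial probe sets had a limma p below 0.05 and a lower level, against 1.52% of all probe sets, and the groups were separate with LSD lower in 2 of the 4, against 3.79% of all. The 4 probe sets read 3 genes of the same genome, with a pair for COX1, so they are not independent readings. COX2 had the tenth and COX3 the twelfth most negative change of all probe sets. Signal level moved with these shares, since bright probe sets leaned lower across the whole array, and its part in the mitochondrial values was not tested. Of 171 probe sets with a mean of 10 log2 units or more, a limit chosen after the values were seen, 108 had a negative change, 39 (22.8%) were separate with LSD lower, and the median change was -0.05. Among the 52 at 11 log2 units or more the median was -0.08 and 17 (32.7%) were separate with LSD lower. All 4 mitochondrial probe sets were among the 171, at means of 10.12 to 12.74. Over the 171, 14 had a change below -0.4 log2 units, and 3 of these were mitochondrial. After cyclic loess, a normalization that adjusts for level, the changes were -0.76 log2 units for COX2, -0.71 for COX3 (limma adjusted p = 0.0396), and -0.33 and 0.014 for the first and second COX1 probe sets.

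**Figure D2:**
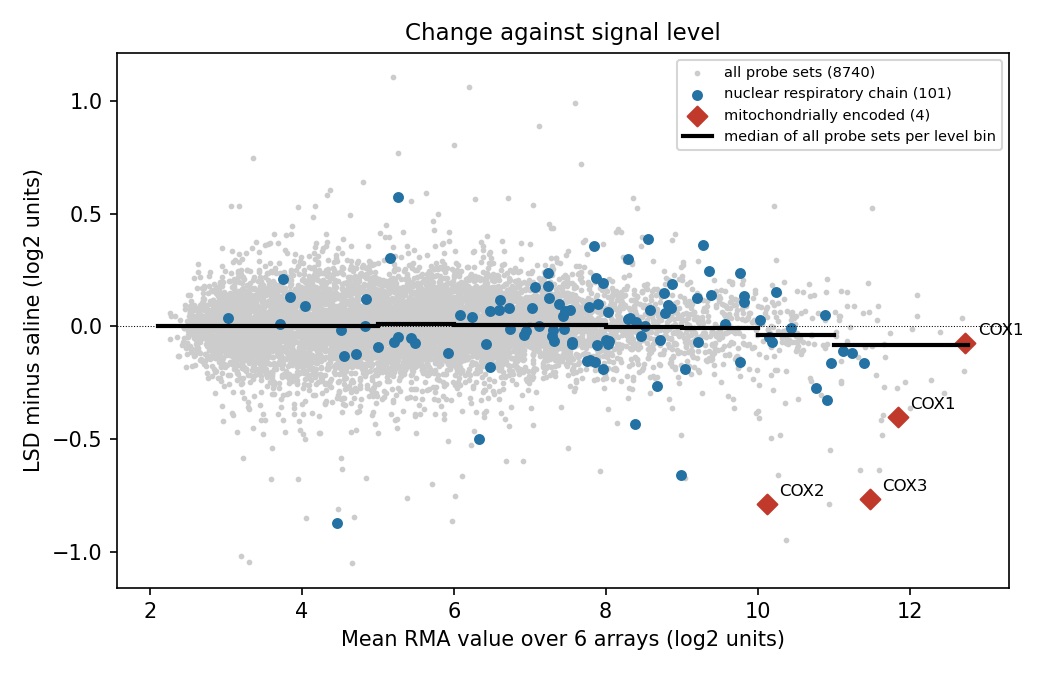
Change from saline to LSD (vertical axis, log2 units) against the mean RMA value over the 6 arrays (horizontal axis, log2 units) for all 8740 probe sets in light grey, the 101 nuclear respiratory chain probe sets in blue and the 4 mitochondrially encoded ones as red diamonds, with black lines for the median of all probe sets in each level bin. The medians fall to -0.04 and -0.08 in the bins from 10 and from 11 log2 units, and COX2, COX3 and 1 COX1 probe set lie below them.

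The mitochondrial and nuclear members were also set side by side on each array. The mean deviation of the 4 mitochondrial probe sets from their own 6-array means was 0.157, 0.346 and 0.257 log2 units on Saline 1 to 3, and -0.087, -0.246 and -0.428 on LSD 1 to 3, so the groups did not overlap. For the 55 nuclear genes it was -0.049, 0.017 and 0.013 on the saline arrays and 0.042, 0.066 and -0.089 on the LSD arrays, with the lowest value of all on LSD 3. The mitochondrial minus the nuclear mean was 0.207 to 0.329 log2 units in saline and -0.339 to -0.129 in LSD arrays, a difference of -0.52 between the group means. It is given without a test, since a score over chosen members has none here. In bulk tissue, fewer cells of a type and less RNA per cell cannot be told apart.

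Several other measures separated the same arrays. Of 6 probe sets that name a cytosolic ribosomal RNA gene, 5 were lower on every LSD array, against 3.79% of all probe sets. Of these, 2 passed (limma adjusted p = 0.0225 for both), and 1 of the 6 was higher. The passing rc_AA859372_s_at and the higher rc_AI176460_s_at also name several other genes, among them haemoglobin genes. All the others name Rn28s and Rn45s, so they are not independent readings. The mean deviation of the 6 lay between 0.150 and 0.225 log2 units in saline and between -0.198 and -0.170 in LSD arrays. Beta-actin control probe sets at the 3' end exceeded those at the 5' end, which reflects RNA integrity, by 0.749 to 0.835 in saline and 0.640 to 0.712 in LSD arrays, and the groups were separate. For the other controls of this kind they overlapped, with 0.474 to 0.555 and 0.400 to 0.581 for Gapdh and 1.771 to 1.910 and 1.655 to 1.996 for hexokinase. All 6 measured striatal markers had negative changes (median -0.16), with mean deviations of 0.090 to 0.121 in saline and -0.148 to -0.046 in LSD arrays. All 3 choroid plexus markers had negative changes too (median -0.41), with 0.111 to 0.198 against -0.218 to -0.056, and neither list had a member past the threshold. The part of these differences in the mitochondrial values was not tested. Lists of excitatory neuron (4 measured), inhibitory neuron (6), astrocyte (6), oligodendrocyte (5) and microglia (5) markers, with 2 blood markers, had medians from -0.07 to 0.03 and 0 members past the threshold. The astrocyte median lay between 3 positive and 3 negative changes. Aqp4, dim at 3.59 log2 units in saline arrays, was separate with LSD higher (0.41 ± 0.13, SE), against 6.58% of all probe sets. Slc1a3 was separate with LSD lower (-0.25 ± 0.10), and S100b overlapped at -0.24 ± 0.097. The excitatory neuron marker Nrgn averaged 10.99 ± 0.014 log2 units without and 11.05 ± 0.064 with LSD (SD, n = 3). The others of its list were dimmer, with 6-array means of 5.58 for Camk2a, 4.75 for Slc17a7 and 3.55 for Rorb. Their changes were -0.19, -0.16 and 0.02. The arrays carry no detection calls to say whether other defining markers were absent.

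**Figure D3:**
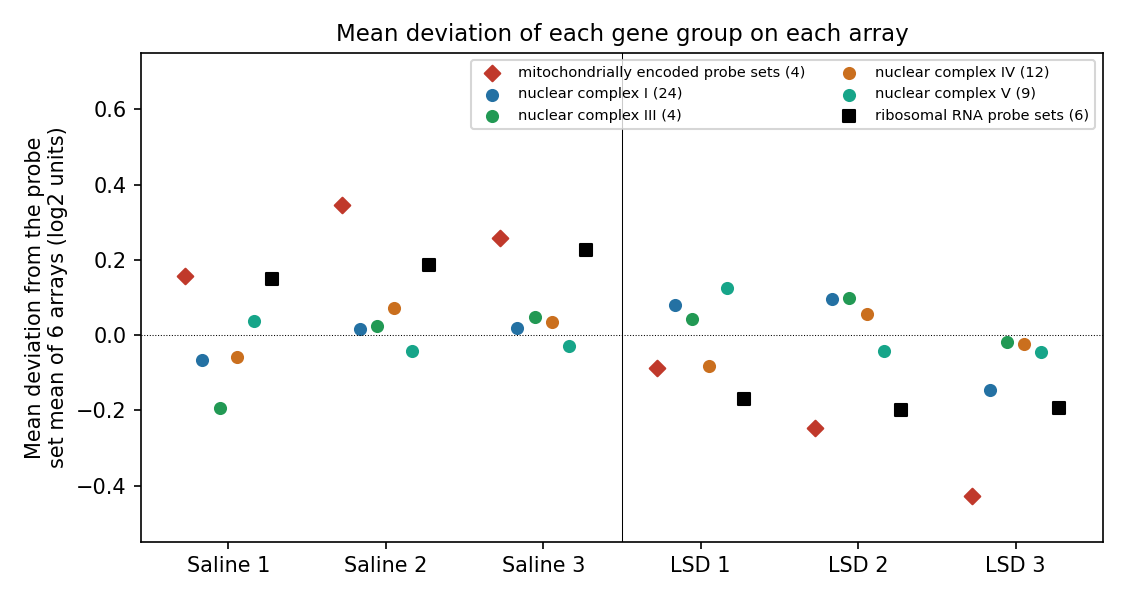
Mean deviation (vertical axis, log2 units) of each gene group from the 6-array mean of its probe sets, for each array (horizontal axis, saline left and LSD right of the line), with the number of probe sets in brackets. Mitochondrially encoded and ribosomal RNA probe sets are above 0 on all saline and below 0 on all LSD arrays, while each nuclear complex has both signs within a group.

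None of the 55 nuclear genes passed over all probe sets in limma (lowest adjusted p = 0.779). By sign 31 were higher and 24 lower, or 56.4% higher against 51.4% of all probe sets, with changes from -0.66 to 0.39 log2 units. Before adjustment, 2 had a p below 0.05 with a higher level, against 2.4% of all probe sets, and 1 with a lower level, against 1.52% (3.92% in both directions). The groups were separate for 5 with LSD higher (9.09%, against 6.58% of all) and for 1 with LSD lower (1.82%, against 3.79%), so the nuclear members stood near the background on each count. The 95% interval lay within a 1.5-fold change in either direction for 45 of the 55. The 10 others were Cyc1 and the complex I genes Ndufa3, Ndufa8, Ndufa9, Ndufab1, Ndufb1, Ndufb3, Ndufb9, Ndufb10 and Ndufv2. The sign majority depended on single arrays, with 26 higher and 29 lower without Saline 1, and 34 higher and 21 lower without Saline 2. Saline 1 was the lowest of the 6 arrays for 18 of the 55 genes (32.7%), against 26.9% of all probe sets.

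**Figure D4:**
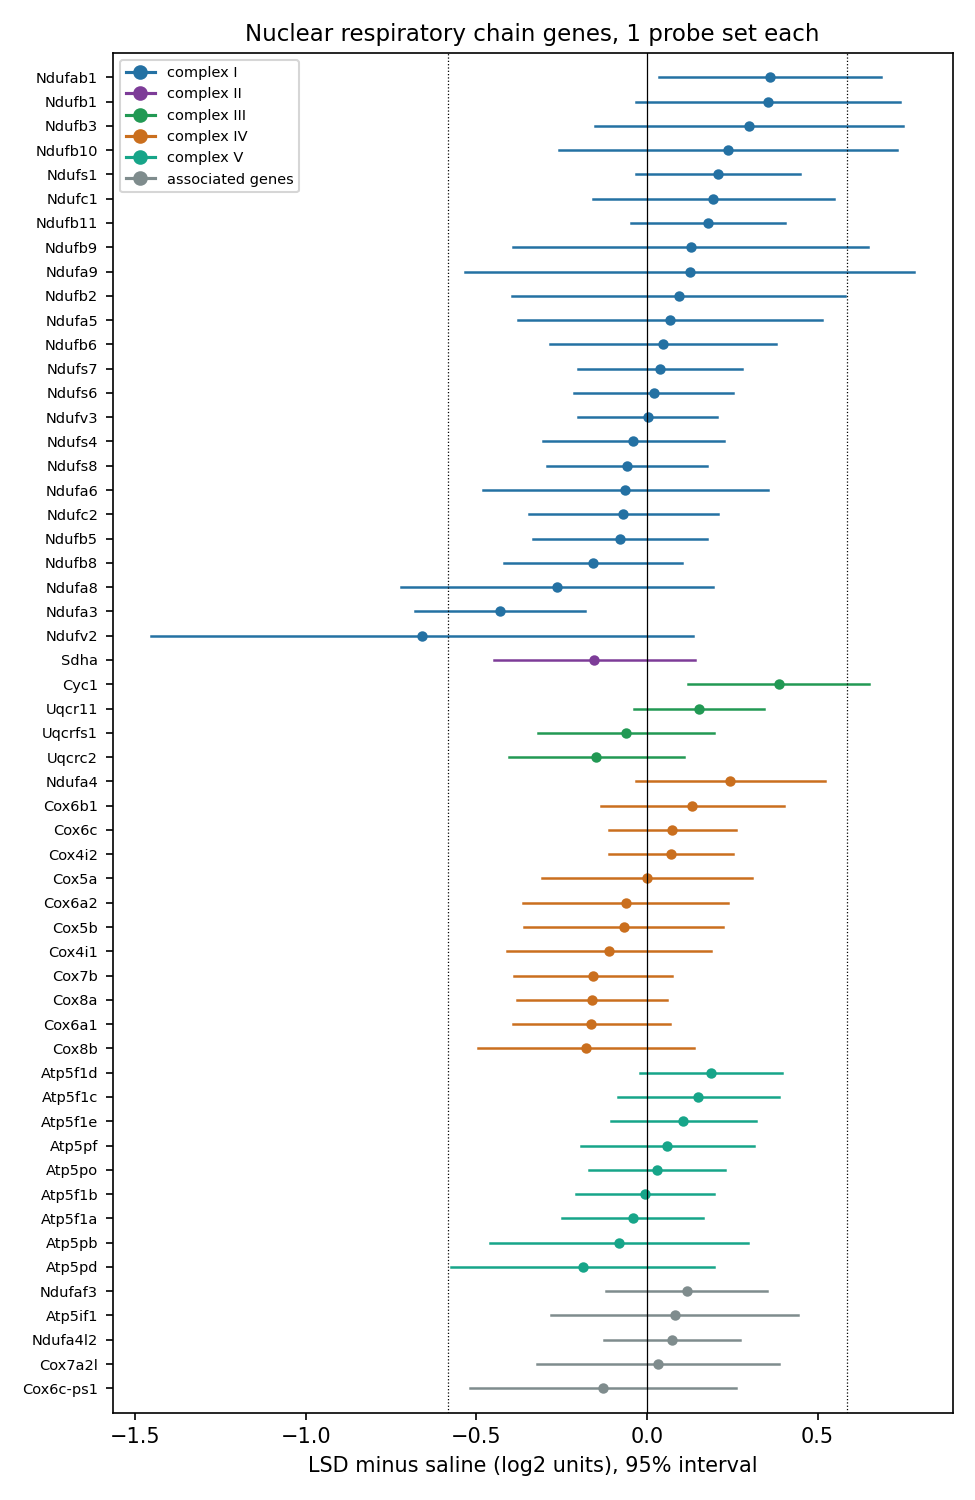
Change from saline to LSD (horizontal axis, log2 units) of the 55 nuclear genes, drawn as the limma estimate with its 95% interval (n = 3 arrays per group) and coloured by complex. Dotted lines mark a 1.5-fold change in either direction, and 45 of the intervals lie between them.

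The promoters of the nuclear genes were examined for sequence features by which many respiratory genes are known to be co-ordinated. Nuclear respiratory factor 1 (NRF-1), the ETS-family factor GABPA and YY1 bind promoters of such genes. A window from 250 bases before to 50 after the start of the gene was found for 46 of the 55 in RefSeq sequences of the GRCr8 assembly. It was searched on both strands for GCGCA and GCGC separated by any 1 base (NRF-1), CCGGAAG (ETS factors) and AANATGGCG (YY1), none of which overlapped another in the windows printed. At least 1 of these was in 21 of 46 windows (45.7%), against 17.8% of 21851 windows of protein-coding genes and 14.3% of all 33469. The YY1 letters were in 10 (21.7%, against 3.67% of protein-coding windows), the ETS letters in 9 (19.6%, against 10.7%) and the NRF-1 letters in 6 (13.0%, against 5.67%). A match is a description of letters and not a bound site. The YY1 letters contain ATG, and in the Ndufa6 and Ndufs6 windows they begin 15 and 23 bases after the gene start. Whether such matches are the start of the coding sequence was not tested. The 4 members with 2 of the 3 motifs are printed 5' to 3' in the direction of the gene, with the motifs in capitals.
Ndufs1: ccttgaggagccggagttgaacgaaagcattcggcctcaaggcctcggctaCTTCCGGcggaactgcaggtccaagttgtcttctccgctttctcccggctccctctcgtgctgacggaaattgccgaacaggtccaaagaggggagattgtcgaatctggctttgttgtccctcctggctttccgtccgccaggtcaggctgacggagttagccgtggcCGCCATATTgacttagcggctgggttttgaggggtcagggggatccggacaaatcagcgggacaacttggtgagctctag
Ndufa6: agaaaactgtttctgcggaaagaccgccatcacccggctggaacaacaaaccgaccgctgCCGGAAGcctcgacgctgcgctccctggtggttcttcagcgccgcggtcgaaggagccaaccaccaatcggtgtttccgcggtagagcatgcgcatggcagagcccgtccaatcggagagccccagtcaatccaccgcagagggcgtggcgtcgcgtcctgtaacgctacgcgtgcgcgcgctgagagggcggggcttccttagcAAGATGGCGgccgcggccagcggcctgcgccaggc
Ndufs6: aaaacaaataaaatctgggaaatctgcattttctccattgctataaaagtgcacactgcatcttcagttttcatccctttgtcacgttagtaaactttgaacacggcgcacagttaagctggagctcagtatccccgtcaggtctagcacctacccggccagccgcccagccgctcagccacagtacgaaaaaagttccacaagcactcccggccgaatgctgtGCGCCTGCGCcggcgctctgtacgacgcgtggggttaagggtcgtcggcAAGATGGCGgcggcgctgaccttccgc
Atp5pf: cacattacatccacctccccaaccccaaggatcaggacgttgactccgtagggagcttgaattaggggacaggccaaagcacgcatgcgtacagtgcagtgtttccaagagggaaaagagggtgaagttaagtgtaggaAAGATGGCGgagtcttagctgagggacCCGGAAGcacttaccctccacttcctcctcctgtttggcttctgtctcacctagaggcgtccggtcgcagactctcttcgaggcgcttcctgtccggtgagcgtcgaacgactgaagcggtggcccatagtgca
The Ndufs1 window is chr9:72073556-72073855 (minus strand). The Ndufa6 window is chr7:115750268-115750567 (minus strand). The Ndufs6 window is chr1:31797150-31797449 (plus strand). The Atp5pf window is chr11:37375052-37375351 (minus strand). Ndufs1, Ndufa6 and Atp5pf hold the ETS and YY1 letters, and Ndufs6 holds those of NRF-1 and YY1. The 21 genes with a motif had 10 positive and 11 negative changes (median -0.006 log2 units, from -0.16 to 0.21), and the 25 without had 16 positive and 9 negative (median 0.07, from -0.66 to 0.36). The single motifs differed in sign. Changes were positive for 5 and negative for 1 of the genes with the NRF-1 letters (median 0.024). They were positive for 2 and negative for 7 with the ETS letters (median -0.064), and for 6 and 4 with the YY1 letters (median 0.029). Some genes are in 2 of these groups, and the differences between groups were not tested. None of the 55 nuclear genes passed the threshold, so no motif group could hold a member past it.

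Complex I, the NADH dehydrogenase that feeds most electrons into the chain, was represented by 24 genes, of which 15 had positive and 9 negative changes (median 0.04 log2 units, 0 past the threshold). Its mean deviation was -0.066, 0.015 and 0.019 on Saline 1 to 3 and 0.081, 0.097 and -0.146 on LSD 1 to 3, so the LSD arrays spread more widely (SD 0.136) than the group means differed (0.022). Ndufa3, an accessory subunit, had the smallest p of all nuclear members, with 8.61, 8.51 and 8.69 log2 units on Saline 1 to 3 and 8.28, 8.27 and 7.98 on LSD 1 to 3. All LSD arrays were lower, with a change of -0.43 ± 0.11 (SE, limma adjusted p = 0.779). Ndufv2, an iron-sulphur subunit of the NADH-oxidising arm, had the most negative change among the nuclear representatives at -0.66 ± 0.345 (SE), with 1 array far from the others. It read 10.19 on Saline 1, 8.59 and 9.16 on Saline 2 and 3 and 8.53, 8.84 and 8.60 on LSD 1 to 3, and its change was -0.22 without Saline 1.

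The accessory subunit and mitochondrial acyl carrier protein Ndufab1 had 3 probe sets with positive changes, of 0.36, 0.57 and 0.30 log2 units. The brightest read 9.08, 9.23 and 9.01 on Saline 1 to 3 and 9.62, 9.62 and 9.15 on LSD 1 to 3, with LSD 3 among the saline arrays (limma adjusted p = 0.981). Ndufb1, of the membrane arm, read 7.90, 7.76 and 7.34 on the saline and 8.27, 7.99 and 7.81 on the LSD arrays, which overlapped at a change of 0.35 ± 0.17 log2 units (SE). Of 9 Ndufb genes, whose products lie in the membrane arm, 7 had positive changes (median 0.13). Ndufs1, the large iron-sulphur subunit, and Ndufb11 were separate with LSD higher, at changes of 0.21 ± 0.10 and 0.18 ± 0.098 log2 units (SE, limma adjusted p = 0.981 for both). The second Ndufb11 probe set was at 0.01, with overlap. The Ndufs1 probe set was dim, at 3.64 log2 units in saline arrays, where RMA compresses differences. The brightest Ndufb8 probe set had a change of -0.16, and its 3 others ranged from -0.02 to 0.17.

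Complex II, which oxidises succinate and has no mitochondrially encoded subunit, was represented by its flavoprotein Sdha alone. It read 7.77, 7.83 and 7.90 log2 units on the saline and 7.45, 7.94 and 7.64 on the LSD arrays, with overlap and a change of -0.15 ± 0.13 (SE, limma adjusted p = 0.981).

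Complex III, which passes electrons from ubiquinol to cytochrome c, held 4 nuclear genes. Cyc1, the cytochrome c1 subunit that hands electrons to cytochrome c, had the most positive change of all nuclear representatives. It read 8.17, 8.52 and 8.40 log2 units on Saline 1 to 3 and 8.71, 8.89 and 8.65 on LSD 1 to 3, all above the saline arrays, at a change of 0.39 ± 0.12 (SE, limma adjusted p = 0.981). Uqcr11, a small subunit, was separate as well, with 10.14 to 10.20 in saline and 10.24 to 10.40 in LSD arrays, although its second probe set had a change of -0.05. The core subunit Uqcrc2 and the brightest probe set of the Rieske iron-sulphur protein Uqcrfs1 overlapped, at -0.15 ± 0.11 and -0.06 ± 0.11 log2 units (SE). Further Uqcrfs1 probe sets were at 0.08, separate with LSD higher, and at -0.01, with overlap.

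The nuclear subunits of complex IV are the partners of COX1, COX2 and COX3 in the same enzyme. Of 12 genes, 5 had positive and 7 negative changes, with a median of -0.07 log2 units, 0 past the threshold and no gene whose groups were separate. All 12 had 95% intervals within a 1.5-fold change. The intervals of COX3, COX2 and the first COX1 probe set included a 1.5-fold lower level and larger decreases. That of the second COX1 probe set, from -0.31 to 0.16, lay within a 1.5-fold change as well. Cox5a was read by a dim probe set (mean 4.83), where RMA compresses differences, and a brighter one (9.69, change 0.09) that names a further gene was outside the rule. The mean deviation of the 12 genes was -0.059, 0.071 and 0.036 on Saline 1 to 3 and -0.081, 0.056 and -0.024 on LSD 1 to 3, which overlapped. Cox8a, a small membrane subunit, had changes of -0.16, -0.12, -0.33 and -0.27 log2 units in its 4 probe sets, each at a mean above 10, where bright probe sets leaned lower. The third of these, rc_AI102505_at, was separate with LSD lower (limma adjusted p = 0.981). Cox6a1 and Cox7b were at -0.16 ± 0.10 each (SE), Cox6b1 at 0.13 ± 0.12, and Ndufa4, now counted as a subunit of this complex, at 0.24 ± 0.12.

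Isoform pairs that are used in different tissues had no member past the threshold, and the differences between isoforms were not tested. The ubiquitous Cox4i1 and the lung-enriched Cox4i2 had changes of -0.11 ± 0.13 and 0.07 ± 0.079 log2 units (SE). Further Cox4i1 probe sets were at 0.05 and -0.19. The broadly expressed Cox6a1, given above, and the heart and muscle form Cox6a2 had the same sign in their brightest probe sets. That of Cox6a2 was at -0.06 ± 0.13 (SE) and turned to 0.044 without Saline 2. Further probe sets were at -0.07 and 0.05 for Cox6a1 and at -0.01 for Cox6a2. A dim Cox6a2 probe set, X72758mRNA_at, was at -0.87 ± 0.70 (SE), with 6.85 on Saline 1 and 3.77 to 4.19 on the other 5. Cox8b, the heart and muscle form beside Cox8a, was at -0.18 ± 0.14 (SE).

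ATP synthase was represented by 9 genes, 5 with positive and 4 with negative changes (median 0.03 log2 units, 0 past the threshold). The catalytic beta subunit Atp5f1b read 10.54, 10.35 and 10.45 on the saline and 10.47, 10.48 and 10.38 on the LSD arrays, a change of -0.0061 ± 0.088 (SE), with a 95% interval from -0.21 to 0.20. The central stalk subunit Atp5f1d was separate with LSD higher, at 8.88, 8.81 and 8.66 in saline and 8.95, 8.94 and 9.02 in LSD arrays, a change of 0.19 ± 0.090 (SE, limma adjusted p = 0.981). Its second probe set was at 0.10. Atp5f1c, the rotating gamma subunit, was at 0.15 ± 0.10, and the peripheral stalk subunits Atp5pd and Atp5pb at -0.19 ± 0.17 and -0.08 ± 0.16 (SE). A less bright probe set of the stalk protein Atp5po was separate with LSD higher at 0.24, while the brightest was at 0.03 ± 0.087 (SE). The 5 associated genes, which encode an ATP synthase inhibitor, an assembly factor, a subunit paralog, a supercomplex factor and a pseudogene, ranged from -0.13 to 0.12.

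Probe sets of the same nuclear gene often disagreed in sign. Of 28 genes with several, 12 had 1 sign throughout (8 positive, 4 negative) and 16 had both, and 28 of 46 further probe sets had the sign of the representative. Between the probe sets of a gene the changes spread by a median of 0.149 log2 units. The widest spreads were those of Cox6a2 (0.857), where Saline 1 stood apart, and Ndufa6, an accessory subunit of complex I at -0.06, whose second probe set was at -0.50 with every LSD array below every saline array, and at 7.23 on Saline 1, far above the other 5. A further 7 probe sets that name a respiratory gene together with a copy or pseudogene, among them those of cytochrome c and the ATP synthase c subunits, were outside the rule. They had 6 positive and 1 negative changes, from -0.02 to 0.41 log2 units, with 0 past the threshold.

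**Figure D5:**
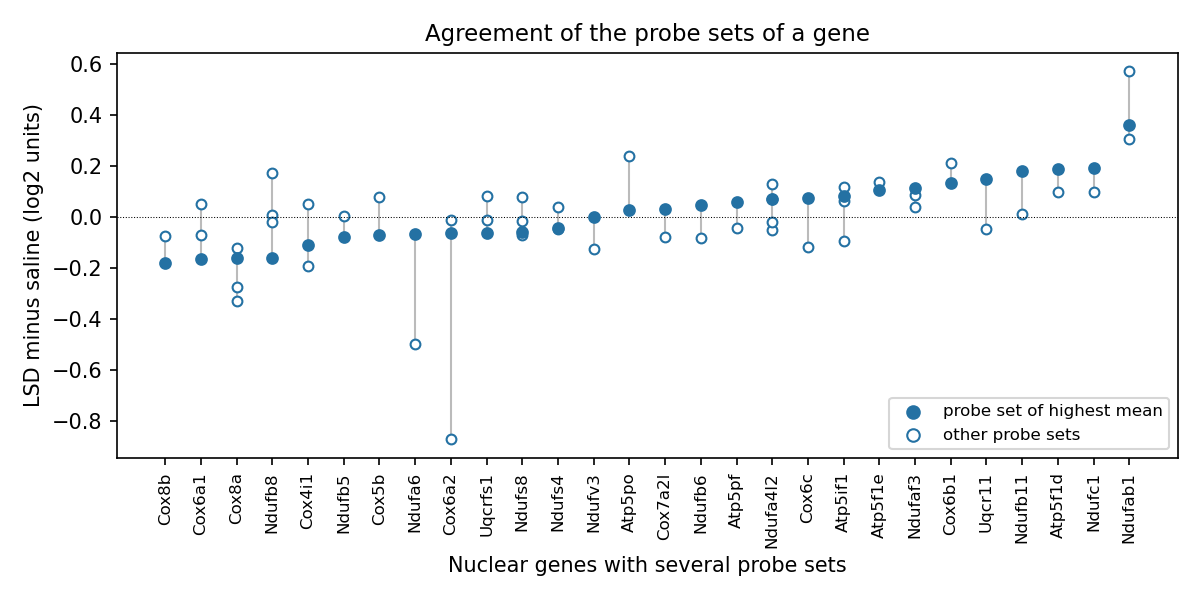
Change from saline to LSD (vertical axis, log2 units) of every probe set of the 28 nuclear genes that have several (horizontal axis), with filled points for the probe set of highest mean and open points for the others. In 16 genes the points lie on both sides of 0.

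Genes that feed or serve the chain were examined as whole lists. Of 54 genes measured, 26 had positive and 28 negative changes (median -0.0049 log2 units), 0 passed in limma, and 2 (3.7%) had an unadjusted p below 0.05, against 3.92% of all probe sets. The tricarboxylic acid cycle list had 6 of 10 positive, and it included the cytosolic forms Aco1, Idh1 and Mdh1 (-0.01, 0.06 and -0.09 log2 units). The entry enzyme of the cycle, citrate synthase (Cs), was at 7.12, 7.25 and 7.09 in saline and 7.55, 7.34 and 7.26 in LSD arrays, a narrow separation. The pyruvate entry list had 6 of 11 positive. Carriers and porins had 9 of 10 negative, led by the adenine nucleotide translocator Slc25a4, which passes ATP out of mitochondria, with 9.73 to 10.03 in saline and 9.57 to 9.71 in LSD arrays, a change of -0.22 ± 0.10 log2 units (SE). Uncoupling proteins had 1 of 3 positive, genes of mitochondrial DNA upkeep and its regulators 2 of 4, assembly genes 2 of 2, and kinases that buffer ATP 3 of 6. Among the latter, Ak3, the mitochondrial adenylate kinase that uses GTP, was separate with LSD higher at 0.27 ± 0.088 (SE). Antioxidant enzymes had 5 of 8 positive. The manganese superoxide dismutase Sod2 of the mitochondrial matrix read 5.98, 5.56 and 5.26 on Saline 1 to 3 and 6.21, 6.07 and 6.94 on LSD 1 to 3, a change of 0.80 ± 0.25 log2 units (SE, limma adjusted p = 0.981), highest on LSD 3.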

How the data were processed

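Log2 values were deposited by the authors, who processed Affymetrix rat genome U34 arrays (set A) with RMA as implemented in the affy package (its version was not stated), which corrects background, applies quantile normalization and summarises the probes of each set. This gives all arrays nearly the same distribution, which hides a shift common to most transcripts, and changes of dim probe sets are compressed. Precision is limited by the number of arrays, which is 6. Of 8799 probe sets, 59 controls were left out. Gene symbols came from the platform annotation of 2016 (7006 probe sets with 1 symbol, 308 with several, 1426 with none). Array medians were 5.429 to 5.449. Saline 1 stood apart, with 78 probe sets differing by over 1 log2 unit from the average of the remaining 5 (2 to 21 on the others). Array pairs correlated at 0.984 to 0.9955, and none held identical values.

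LSD and saline arrays were compared by limma's moderated test (version 3.58.1, R 4.3.3, two-sided, without covariates) across 8740 probe sets and p-values were adjusted by the Benjamini-Hochberg method (threshold 0.05). Errors are standard errors of that fit unless given as SD. The script was tested on simulated data. The members and lists were chosen with earlier results of these data known. Genes were named by complex: the probe set of highest signal, those of lowest p in each direction, separate groups, isoform pairs and probe sets that disagreed. Alternatives were other normalizations, a filter on dim probe sets, a variance trend, array weights, a replicate block, other summaries per gene, a rank test and leaving out each array. Probe and protein sequences were not used here.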

Additional observations from a re-analysis of the deposited data

How the results depend on the processing

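The number of member probe sets past the threshold was 1 in 7 alternatives (1 probe set per gene, the mean per gene, array weights, cyclic loess, median centring, a filter on dim probe sets, and an intensity trend with a robust prior). It was 0 after a further quantile normalization, with the replicate block, by an exact rank sum test, which cannot go below 0.1 with 3 against 3 arrays, and 0 without any 1 array. Without adjustment 9 of 105 member probe sets had a p below 0.05, against 343 of 8740 (3.92%) on the whole array, a count added after seeing the data. Over the whole array the count of 6 became 1 with 1 probe set per gene, 42 with array weights, 16 without dim probe sets, 20 with an intensity trend, 0 with the replicate block and with the rank test, and 0 to 3 without 1 array. The lists of genes that feed or serve the chain, some of them cytosolic, had 0 in every alternative.

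The change of COX3 stayed negative throughout, at -0.65 after a further quantile normalization, -0.77 with the replicate block and -0.80 to -0.72 without 1 array, where it no longer passed. COX1 (rc_AA893485_g_at) turned to 0.014 after cyclic loess and 0.025 after a further quantile normalization, and ranged from -0.15 to 0.00067 without 1 array. The median of the mitochondrial probe sets was -0.77 with 1 probe set per gene and with the mean per gene, both over 3 genes, -0.44 after a further quantile normalization, and -0.65 to -0.42 without 1 array. The nuclear median lay between -0.03 and 0.05 in all alternatives, within the spread between arrays. Signs turned for nuclear genes with small changes. With array weights Cox8b was at 0.017, Atp5f1b at 0.032 and Ndufa9 at -0.093. With the mean of all probe sets Ndufb8 was at 0.0013 and Uqcrfs1 at 0.0038. Atp5f1b was at 0.031 after cyclic loess and 0.056 after a further quantile normalization. Without 1 array Ndufa6 ranged from -0.28 to 0.057, Cox6a2 from -0.21 to 0.044, Atp5f1b from -0.053 to 0.041, Atp5pb from -0.28 to 0.036, Atp5po from -0.031 to 0.066, Ndufa9 from -0.19 to 0.38 and Ndufb9 from -0.073 to 0.34. The cause of these shifts was not tested. Deviations of same-numbered arrays correlated at -0.018, -0.232 and 0.175, and those of other pairs at -0.15 to 0.205. With 3 arrays per group, these values cannot decide whether the replicate numbers pair the arrays.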
